A study of Mus musculus with 12 samples.

Results

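Apolipoprotein L (*Apol*) transcripts were examined in tumors of mTc11, a line of mouse lung cancer cells, grown under the skin with and without knockdown of *Filip1l*. The family was taken as every gene of the table whose symbol is Apol followed by a digit, which gave 9 of the 15687 genes measured. The mouse annotation holds 14 such genes, and the other 5 (*Apol7b*, *Apol7d*, *Apol11a*, *Apol11b* and the pseudogene *Apol10c-ps*) were not in the table and were not analysed here. The set was drawn up with the large rise of *Apol10a* already known, so the differences of its members between the groups are given as a description and carry no p-value. The 6 CTL tumors came from mTc11 cells carrying a scrambled shRNA, which the labels call WT, and the 6 *Filip1l*-knockdown tumors from mTc11 cells carrying a lentiviral shRNA against *Filip1l*. All cells were injected with Matrigel into 8 week-old male C57BL6/J mice, whose own stroma and immune cells are part of each tumor, and all tumors were collected and snap-frozen on day 24. The knockdown cells were puromycin-selected derivatives chosen by immunoblot, and which of the shRNA constructs the sequenced tumors carried is not stated in the sources used here. Differences between separately derived cells and the effect of the knockdown cannot be told apart in this design.

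Apolipoproteins L are a family of mostly intracellular proteins that bind lipids and membranes, and their pore-forming region resembles bacterial colicins and the BCL2 family. The best known member is human APOL1, a secreted protein that kills trypanosomes. In mice the family has expanded into a tandem array, and several members are induced by interferon. Members have been linked to cell death, to the membranes of organelles and phagosomes, and to defence against viruses and bacteria.

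Apart from *Apol7d*, which is annotated on chromosome 1, the family lay on chromosome 15 (GENCODE vM21 on GRCm38, the same assembly as mm10). *Apol6* (ENSMUSG00000033576, chr15:77044729-77057106, + strand) stood alone, 331 kb before the rest. The other 8 measured members followed each other over 369 kb. In order they were *Apol7a* (ENSMUSG00000010601, chr15:77388219-77399110, − strand), *Apol9a* (ENSMUSG00000057346, chr15:77403789-77411135, − strand), *Apol10a* (ENSMUSG00000050982, chr15:77477047-77491069, + strand), *Apol7c* (ENSMUSG00000044309, chr15:77524852-77533316, − strand), *Apol10b* (ENSMUSG00000050014, chr15:77583819-77596125, − strand), *Apol7e* (ENSMUSG00000071716, chr15:77698857-77719285, + strand), *Apol9b* (ENSMUSG00000068246, chr15:77729039-77736382, + strand) and *Apol8* (ENSMUSG00000056656, chr15:77747798-77757003, − strand). *Myh9*, which encodes non-muscle myosin heavy chain IIA, followed *Apol8*. The coding sequences of some members were close to each other. *Apol9a* and *Apol9b* were 98.5% identical over their aligned coding bases, *Apol7a* and *Apol7c* 90.8%, and *Apol10a* and *Apol10b* 75.3%. *Apol7e* was 88.9% identical to *Apol7a* and 88.5% to *Apol7c*. *Apol10a* was nearer to *Apol11a* (80.9%), which was not in the table, than to *Apol10b*. *Apol10b* was likewise nearer to *Apol11b* (82.1%), also not in the table, than to *Apol10a*.

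Because the authors counted uniquely placed reads, near-identical stretches limit what the closest copies can show. Of all 150-base stretches of its transcripts, the share found identically in another gene was 0.0% for *Apol6*, *Apol7a*, *Apol10a*, *Apol10b* and *Apol8* and 0.302% for *Apol7c*. It was 7.10% for *Apol9a* and 22.5% for *Apol9b*, which share the same 409 stretches with each other. The lower share of *Apol9a* comes from its larger total (5759 stretches against 1819), as its longest coding transcript is of similar length (1530 against 1573 bases). The share was 49.7% for *Apol7e*, which has them in common with *Apol7b* and the antisense gene *Gm36329*, so the values of *Apol7e* are uncertain. *Apol7e* also overlaps *Gm36329* over 324 exon bases, and *Apol6* overlaps *Mb*, the gene of myoglobin, over 64 exon bases (1.42% of its exons). The library kit is not stated to keep strand, so reads from these overlaps cannot be assigned to either gene.

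The start regions of most measured members carried a shared element. It is shown here because, of the motifs searched, it was the only one found in most of them. A window from 250 bases before to 50 bases after the start of each gene (RefSeq, GRCm38.p6) was searched on both strands for GAAA, any 2 bases and GAAA again, the core of the interferon-stimulated response element, to which factors activated by interferon bind, STAT2 and IRF9 among them. Of the 9 measured members, 8 had a window, and the element was found in 6 of these (75%), against 3.99% of all 27025 genes with a window. Among the interferon-stimulated genes listed for this work, 16 of the 30 with a window (53.3%) held it. The 30 bases around it are printed 5′ to 3′ on the strand of the gene, with every base of a match in capitals. The letters shown are the reverse complement of the search string, TTTC with any 2 bases before the next TTTC, and in *Apol9a*, *Apol9b*, *Apol7c* and *Apol7e* a pair of matches overlap and share a run of 4 bases.
Apol10a (chr15:77476986-77477015, + strand): gaaatttttcTTTCACTTTCatgcattggg
Apol10b (chr15:77596110-77596139, − strand): gaaattttacTTTCATTTTCgtgcactgag
Apol9a (chr15:77411117-77411146, − strand): gtgagacTTTCAGTTTCCATTTCccagttg
Apol9b (chr15:77729028-77729057, + strand): gtgagacTTTCAGTTTCCATTTCccagttg
Apol7c (chr15:77533348-77533377, − strand): atggggcTTTCTCTTTCCTTTTCtgctttg
Apol7e (chr15:77698846-77698875, + strand): ttggggcTTTCTCTTTCGTTTTCtgctttg

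The printed stretches of *Apol9a* and *Apol9b* were the same in all 30 bases. In *Apol10a* the element lay from 51 to 42 bases before the start, whereas in *Apol10b* it crossed the annotated start. No match was found in the windows of *Apol7a* and *Apol8*. The 120 bases before the start of *Apol10a* are printed beside those of *Apol11a*, its closest relative by coding sequence, and of *Apol7a*, a member with no match, again with matches in capitals.
Apol10a (chr15:77476927-77477046, + strand): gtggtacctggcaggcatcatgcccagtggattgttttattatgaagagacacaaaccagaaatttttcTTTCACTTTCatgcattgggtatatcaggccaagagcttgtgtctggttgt
Apol11a (chr15:77508149-77508268, + strand): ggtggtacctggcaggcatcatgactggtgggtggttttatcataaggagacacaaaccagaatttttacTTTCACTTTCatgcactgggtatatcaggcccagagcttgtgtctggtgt
Apol7a (chr15:77399111-77399230, − strand): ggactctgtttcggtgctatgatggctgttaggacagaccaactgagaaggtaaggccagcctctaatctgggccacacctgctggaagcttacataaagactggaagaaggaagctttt

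*Apol10a* and *Apol11a* had the same base at 107 of 119 aligned positions. The gamma-activated site TTCNNNGAA, an element of genes induced by interferon gamma, was found in the window of 1 of the 8 members (*Apol10a*, from 241 to 233 bases before the start), against 9.55% of all genes. The sequence CAAAGTCCA, a form of the site bound by the gut and liver factor HNF4A, was found in 0 of the 8, against 0.555% of all genes. A match is a description of letters, and binding was not measured.

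Sequencing gave 17834745 to 32419578 reads on listed genes per tumor. Values are given as normalized counts, the reads of a gene divided by the size factor of the tumor, and a floor of 3 reads came to between 2.59 and 4.48 normalized counts. The target *Filip1l* averaged 2311 ± 211 in the CTL group and 1924 ± 165 after knockdown (normalized counts, SD, n = 6 per group), and the groups overlapped (log2 fold change −0.26, limma adjusted p = 0.00998). CTL replicate 5 and *Filip1l*-knockdown replicate 1 lay farthest from the other tumors of their groups. These are bulk samples, in which fewer cells of a type and less RNA per cell cannot be told apart.

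Among the 9 members, *Apol10a*, *Apol6*, *Apol7a* and *Apol10b* were higher in *Filip1l*-knockdown tumors past both thresholds of the comparison, an adjusted p under 0.05 with limma over all genes and an absolute log2 fold change over 1. None of the 9 was lower past them. Of all genes, 6.2% passed in the higher direction and 3.97% in the lower one, and as the family was chosen with this comparison known, nothing is read from the difference. The same 4 members were those in which every knockdown tumor lay above every CTL tumor, as was the case for 10.6% of all genes, and in 0 members did every knockdown tumor lie below every CTL tumor (10.9% of all genes). Without the pair of tumors that stood apart, the log2 fold changes of these 4 were 6.27 (*Apol10a*), 1.89 (*Apol6*), 1.75 (*Apol7a*) and 1.45 (*Apol10b*), and no other member passed.

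**Figure D1:**
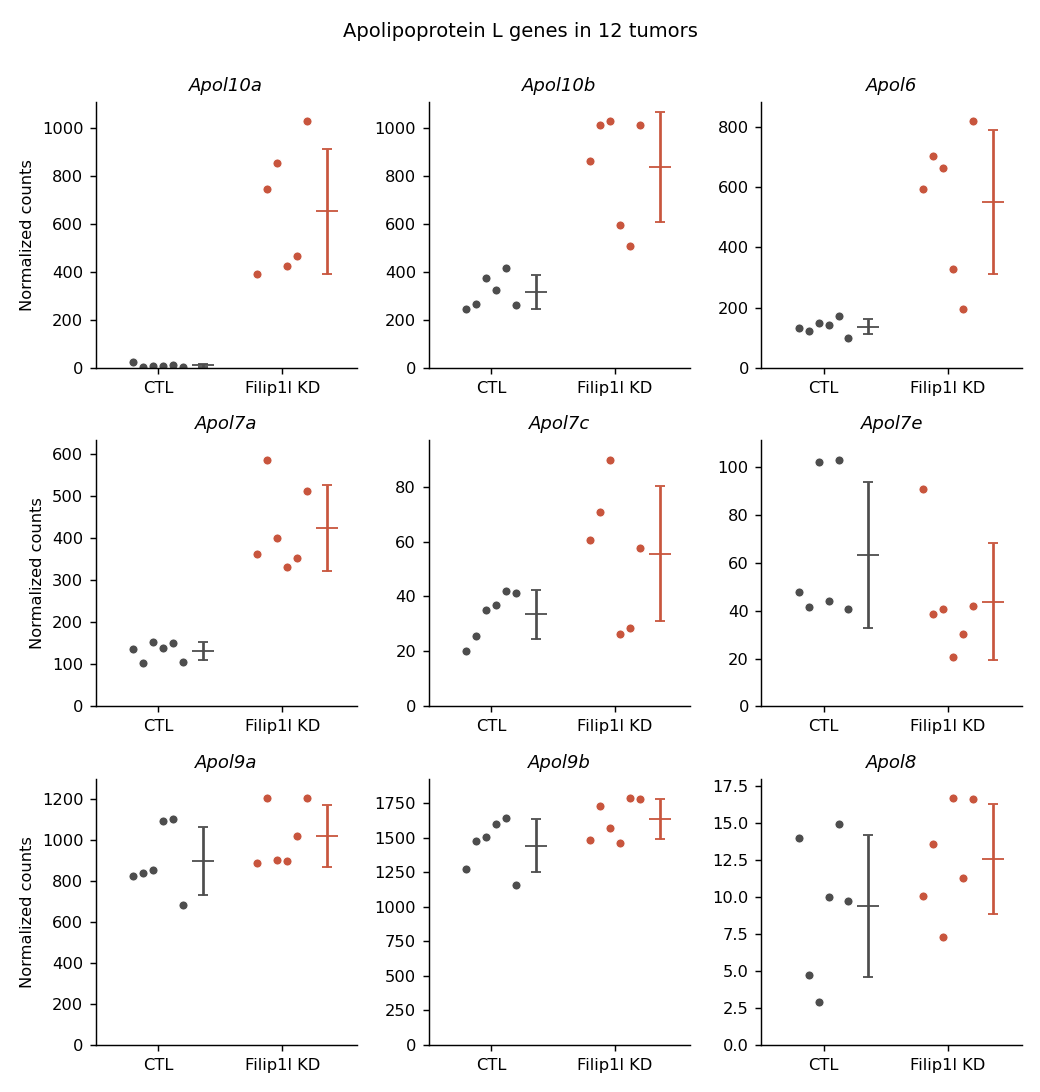
Normalized counts (y axis, linear from 0) of the 9 measured Apolipoprotein L genes in 6 CTL tumors (grey) and 6 *Filip1l*-knockdown tumors (red), 1 point per tumor, with the mean and SD beside them. In *Apol10a*, *Apol10b*, *Apol6* and *Apol7a* every knockdown tumor lies above every CTL tumor, and in the other 5 genes the groups overlap.

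*Apol10a* was close to the detection floor in CTL tumors and readily detected in knockdown tumors. It had 3.79 normalized counts in the lowest CTL tumor, a median of 6.90 and 25.0 in the highest. In *Filip1l*-knockdown tumors it had 391 in the lowest, a median of 606 and 1027 in the highest. The lowest knockdown tumor was thus far above the highest CTL tumor, and the CTL values rested on 4 to 25 reads. Its mean was 9.97 ± 7.89 against 652 ± 262 normalized counts (SD, n = 6 each), which is a ratio of 65.3, and its log2 fold change was 6.04 (standard error 0.38). By log2 fold change it ranked 5 of 15687 genes from the highest. With a pseudocount of 8 in place of 1 the log2 fold change was 5.20, as the low CTL values weigh less there.

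*Apol10b*, the other measured member of the *Apol10* branch, was already present in CTL tumors. Its CTL tumors ranged from 246 to 418 normalized counts with a median of 295, and its knockdown tumors from 509 to 1028 with a median of 938. The groups did not overlap, and the knockdown tumors split into 4 between 864 and 1028 and 2 at 509 and 597. The log2 fold change was 1.38 (standard error 0.19), from a mean of 315 ± 69.9 to 837 ± 229 (SD, n = 6 each).

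*Apol6*, whose human counterpart carries a BH3-like stretch and has been linked to mitochondrial cell death, was also higher in every knockdown tumor. It had 101 normalized counts in the lowest CTL tumor, a median of 138 and 172 in the highest. The knockdown tumors had 195 in the lowest, a median of 629 and 819 in the highest. Replicate 5 of the knockdown group lay close to the CTL tumors and replicate 4 (330 normalized counts) below the others of its group. The log2 fold change was 1.87 (standard error 0.30). The overlapping gene *Mb*, expressed in muscle, was also higher in knockdown tumors (104 ± 72.1 against 614 ± 420 normalized counts, SD, n = 6 per group, limma adjusted p = 0.00272). Within the groups no relation of the log2 values of *Mb* and *Apol6* passed (r = −0.28, rho = −0.24, n = 12 tumors with group means removed, permutation p = 0.410 and 0.479, adjusted 0.653 and 0.611).

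*Apol7a*, on the *Apol7* branch, had the smallest standard error of the 4. Its CTL tumors ranged from 103 to 154 normalized counts with a median of 137, and its knockdown tumors from 332 to 585 with a median of 380. No tumor stood apart in either group. The log2 fold change was 1.67 (standard error 0.16).

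The differences of its close relatives *Apol7c* and *Apol7e* were smaller and did not pass both thresholds. *Apol7c* did not exceed 41.8 normalized counts in CTL tumors (median 35.9) and ranged from 26.4 to 89.7 in knockdown tumors (median 59.1), a log2 fold change of 0.63 (standard error 0.31). Replicates 4 and 5 of the knockdown group (26.4 and 28.5) lay within the CTL range and the other 4 above it, and these were also the lowest knockdown tumors for *Apol6* and *Apol10b*. *Apol7e* ranged from 40.6 to 103 in CTL tumors (median 45.9) and from 20.6 to 90.8 in knockdown tumors (median 39.6), a log2 fold change of −0.54 (standard error 0.35). It was the only member with a lower mean in knockdown tumors, its groups overlapped widely, and its reads cannot be told from those of *Apol7b* over much of its length.

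*Apol9a* and *Apol9b*, interferon-inducible genes whose products bind phosphatidylethanolamine, were the most abundant members and had the smallest log2 fold changes. *Apol9a* ranged from 683 to 1105 normalized counts in CTL tumors (median 849) and from 891 to 1206 in knockdown tumors (median 962), a log2 fold change of 0.19 (standard error 0.12). *Apol9b* ranged from 1159 to 1645 in CTL tumors (median 1488) and from 1464 to 1784 in knockdown tumors (median 1648), a log2 fold change of 0.19 (standard error 0.09). The groups overlapped in both genes. *Apol8* was barely detected in either group, with 2.92 to 14.9 normalized counts in CTL tumors and 7.30 to 16.6 in knockdown tumors (log2 fold change 0.50, standard error 0.39), and the groups overlapped.

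**Figure D2:**
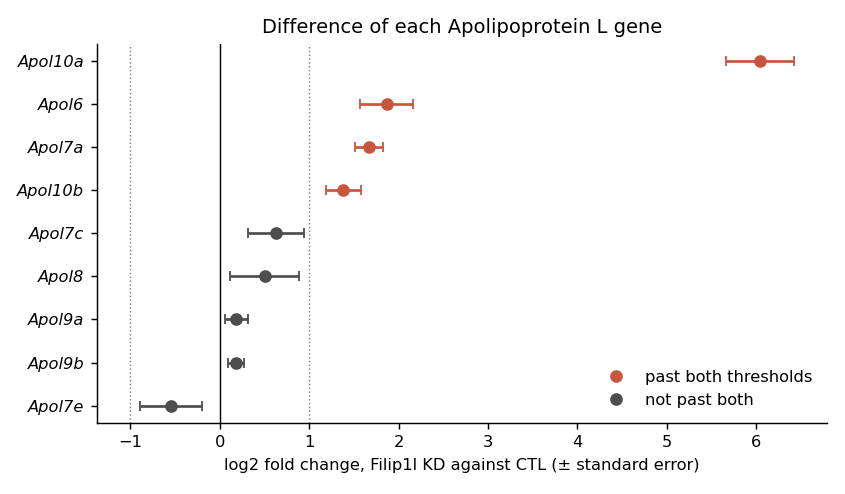
log2 fold change of each measured member, *Filip1l*-knockdown against CTL tumors (x axis), with its standard error, ordered by size. Dotted lines mark log2 fold changes of −1 and 1. Red points, the 4 past both thresholds, run from 1.38 (*Apol10b*) to 6.04 (*Apol10a*), and grey points run from −0.54 (*Apol7e*) to 0.63 (*Apol7c*).

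The differences are listed here by the number of matches to the interferon element, and a relation between them was not tested. Members with a pair of matches had log2 fold changes of −0.54 (*Apol7e*), 0.19 (*Apol9a* and *Apol9b*) and 0.63 (*Apol7c*). Members with a single match had 1.38 (*Apol10b*) and 6.04 (*Apol10a*), and those with none had 0.50 (*Apol8*) and 1.67 (*Apol7a*). *Apol6* (1.87) had no window and could not be placed.

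To compare levels between genes, normalized counts were divided by the length of the longest coding transcript, giving counts per kb. In CTL tumors the order was *Apol9b* (917 ± 120), *Apol9a* (589 ± 108), *Apol10b* (136 ± 30.1), *Apol6* (59.0 ± 10.6), *Apol7a* (54.8 ± 9.15), *Apol7e* (28.6 ± 13.9), *Apol7c* (16.2 ± 4.29), *Apol8* (3.35 ± 1.72) and *Apol10a* (3.29 ± 2.60 per kb, SD, n = 6). *Apol6* and *Apol7a* did not differ beyond their spread, nor did *Apol8* and *Apol10a*. In *Filip1l*-knockdown tumors *Apol10a* (215 ± 86.5 per kb) stood beside *Apol6* (238 ± 103) and *Apol7a* (177 ± 42.6), with overlapping ranges, below *Apol10b* (360 ± 98.7) and above *Apol7c* (27.0 ± 11.9), *Apol7e* (19.8 ± 11.0) and *Apol8* (4.49 ± 1.33). *Apol9b* (1039 ± 93.7) and *Apol9a* (667 ± 98.4) were again highest. Dividing by all annotated exon bases, a scale added after seeing the data, put *Apol9a* below *Apol10b* and *Apol10a* in knockdown tumors, at 172 per kb, because its exons together are much longer than its coding transcript.

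Summed per kb, the family came to 1807 ± 271 in CTL tumors and 2748 ± 433 in knockdown tumors (SD, n = 6 each), a ratio of 1.52, and its make-up shifted. *Apol9a* and *Apol9b* together made 83.4% ± 1.89 of the total in CTL tumors and 62.7% ± 6.88 in knockdown tumors, where their share ran from 56.1% to 73.9%. *Apol10a* went from 0.187% ± 0.163 to 7.61% ± 2.09, *Apol10b* from 7.48% ± 0.924 to 13.0% ± 2.40, *Apol6* from 3.26% ± 0.238 to 8.42% ± 2.87 and *Apol7a* from 3.04% ± 0.379 to 6.39% ± 0.678. The shares sum to a whole, so a rise in some members lowers the others without a change in their own level. They also rest on the length of the longest coding transcript. Over all annotated exon bases *Apol9a* had 172 in place of 667 per kb in knockdown tumors, and shares on that scale were not computed.

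**Figure D3:**
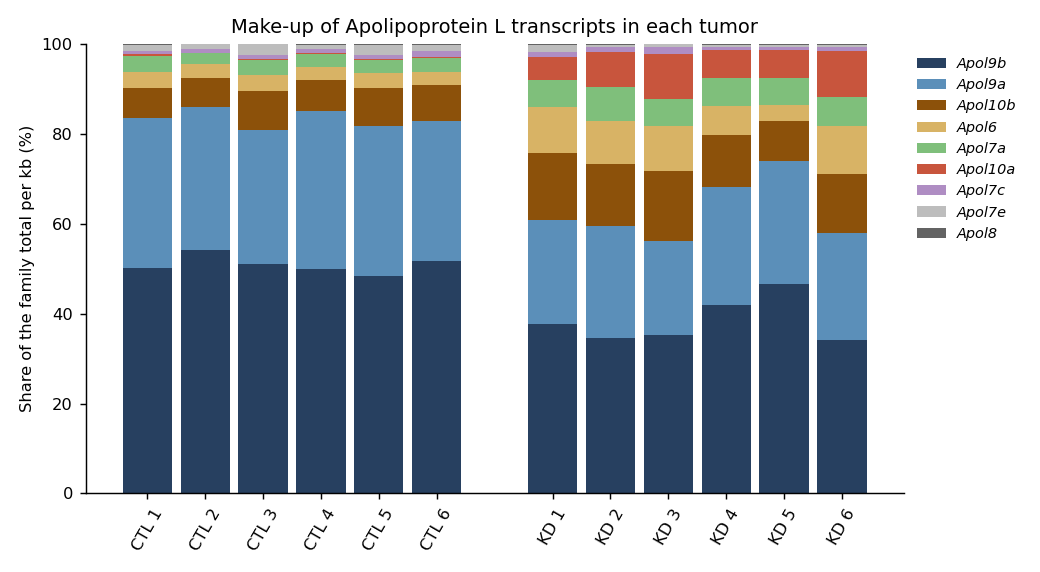
Share of each member in the summed normalized counts per kb of the family (y axis, percent), 1 bar per tumor, CTL tumors at left and *Filip1l*-knockdown (KD) tumors at right. Lengths are those of the longest coding transcript. The blue segments (*Apol9b* and *Apol9a*) fill 83.4% of the CTL bars on average and 62.7% of the knockdown bars, and the red segment (*Apol10a*) is visible in the knockdown bars.

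The rest of the region was compared to see whether neighbouring genes differed as well. Of 63 other genes of the table within 1 Mb of the array, 2 were higher past both thresholds (3.17%, beside 6.2% of all genes). None was lower (3.97% of all genes), and the median log2 fold change of the 63 was −0.02, beside 0.01 over all genes. The 2 were *Mb* (log2 fold change 2.56) and *Slc39a4*, a zinc importer of the gut (2566 ± 477 against 6377 ± 1421 normalized counts, SD, n = 6 per group, log2 fold change 1.30, limma adjusted p = 1.63e-05). *Myh9*, next to *Apol8*, had a log2 fold change of −0.03 (limma adjusted p = 0.804). Over the 495 chromosome 15 genes outside the family that averaged at least 50 normalized counts, the median log2 fold change was −0.05. With the median of these genes removed from each tumor, the log2 fold change of *Apol10a* was 6.10 and that of *Apol10b* 1.44.

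**Figure D4:**
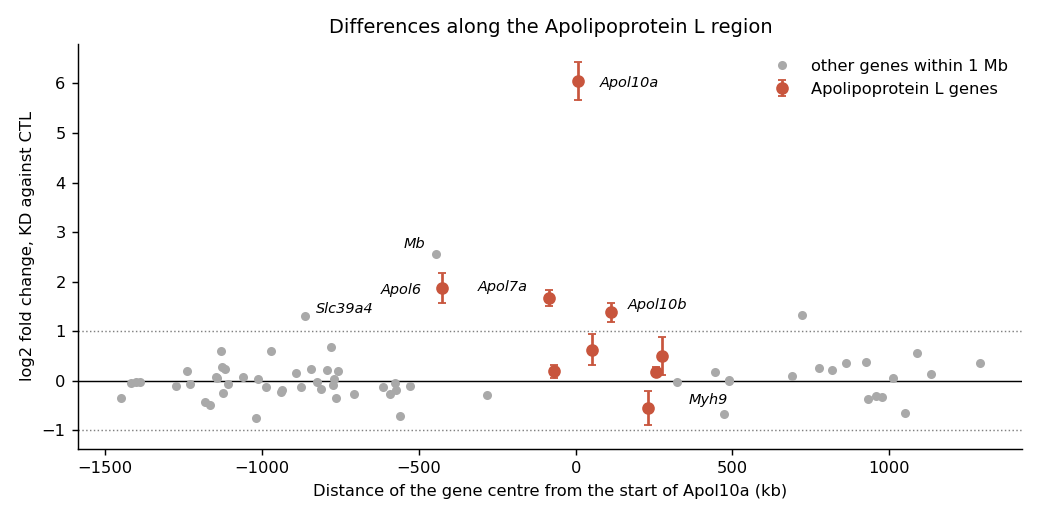
log2 fold change, *Filip1l*-knockdown against CTL tumors (y axis), of the 9 members (red, with standard error) and of 63 other genes within 1 Mb (grey), by the distance of the gene centre from the start of *Apol10a* in kb (x axis). Between the high points of *Apol6*, *Apol7a*, *Apol10a* and *Apol10b* lie members near 0, and of the grey points *Mb*, *Slc39a4* and 1 other gene, which missed the adjusted p, lie above 1.

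Interferon-stimulated genes, the group several members belong to, were mostly a little higher in knockdown tumors. Of 40 listed, 7 were higher past both thresholds (17.5%, beside 6.2% of all genes) and 0 lower (3.97% of all genes). The median log2 fold change of the 40 was 0.56. The largest differences were in *Mx1*, an antiviral GTPase (148 ± 44.3 against 734 ± 239 normalized counts, SD, n = 6 per group, log2 fold change 2.32, limma adjusted p = 3.27e-06), and *Oasl1*, of the OAS-like proteins (480.3 ± 99.5 against 1330 ± 296, log2 fold change 1.46, limma adjusted p = 8.51e-06). The differences of *Apol9a* and *Apol9b* were smaller than the median of the list. That of *Apol10a* is not ranked against the list, because the family was chosen with its large rise known. Genes induced most by interferon gamma had a median of 0.09, and of 19 only *Cxcl9*, a T cell chemokine, was higher past both thresholds (log2 fold change 1.39, limma adjusted p = 0.000459). That share (5.26%) is near the 6.2% of all genes.

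Of 18 receptors, kinases, STATs, IRFs and SOCS genes of the interferon pathway, only *Irf7*, the factor that amplifies type I interferon, passed both thresholds with all tumors in the fit (2122 ± 701 against 4582 ± 1087 normalized counts, SD, n = 6 per group, log2 fold change 1.14, limma adjusted p = 0.000486). This 1 of 18 (5.56%) is near the 6.2% of all genes that were higher past both thresholds. Of factors that bind the element printed above, *Stat2* had a log2 fold change of −0.02 (limma adjusted p = 0.847) and *Irf9* of 0.30 (limma adjusted p = 0.00238). *Irf8*, a factor of myeloid cells, had a log2 fold change of 0.91 (limma adjusted p = 0.000291) and also passed the fold threshold without knockdown replicate 5. The gamma receptor chains *Ifngr1* (0.32, limma adjusted p = 0.000284) and *Ifngr2* (0.65, 6.34e-07) were higher by less than the fold threshold, and the type I receptor chains *Ifnar1* (−0.10) and *Ifnar2* (0.10) missed the adjusted p (0.138 and 0.289). *Jak2*, a kinase of the gamma receptor, was lower (−0.54, limma adjusted p = 8.39e-05). Among genes averaging at least 50 normalized counts, those of chromosome 19, which carries *Jak2*, had a median log2 fold change of −0.35. Those of chromosome 14, which carries *Irf9*, had 0.39, and the part of these shifts in either value was not tested.

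Tumors of the same group also differed from each other, which the choice of the family did not use. The log2 values of each member were therefore set against the mean log2 value of the 40 interferon-stimulated genes (the interferon score) and of 26 intestinal epithelial genes, over 12 tumors with the group means removed. Of 18 relations, *Apol7a* with the interferon score passed at an adjusted p under 0.05 (r = 0.81, permutation p = 0.00250, adjusted 0.0450, rho = 0.85, permutation p = 0.00166, adjusted 0.0299). Without the 2 tumors farthest from the median score it was 0.83, in CTL tumors alone 0.87 (exact permutation p = 0.0222, adjusted 0.125) and in knockdown tumors alone 0.80 (exact permutation p = 0.0722, adjusted 0.260). Within either group alone, 0 of the 18 relations passed after adjustment. *Apol9a* had r = 0.78 (permutation p = 0.00654, adjusted 0.0589, rho = 0.79, permutation p = 0.00584, adjusted 0.0526), and without the 2 farthest tumors r was 0.63. *Apol10a* had r = 0.55 (permutation p = 0.0873, adjusted 0.297, rho = 0.66, permutation p = 0.0294, adjusted 0.132), and without the 2 farthest tumors r was 0.42. In CTL tumors alone its r was 0.42 and in knockdown tumors alone 0.78. Of the relations of the 9 members with the intestinal score, 0 passed, and *Apol10a* had r = 0.32 (permutation p = 0.341, adjusted 0.457, rho = 0.41, permutation p = 0.204, adjusted 0.305). Its r with that score was 0.10 in CTL tumors alone, 0.69 in knockdown tumors alone and −0.04 without the 2 farthest tumors. Without CTL replicate 6, 2 relations with the intestinal score passed, *Apol9a* (r = 0.86 in place of 0.53, adjusted permutation p = 0.0268) and *Apol9b* (r = 0.82 in place of 0.43, adjusted permutation p = 0.0377). The relation of *Apol7a* missed the threshold in 6 of the 12 fits that each left out 1 tumor (CTL replicate 1, 2 or 5 or knockdown replicate 3, 4 or 6), and over the 12 its adjusted permutation p ran from 0.0310 to 0.118.

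**Figure D5:**
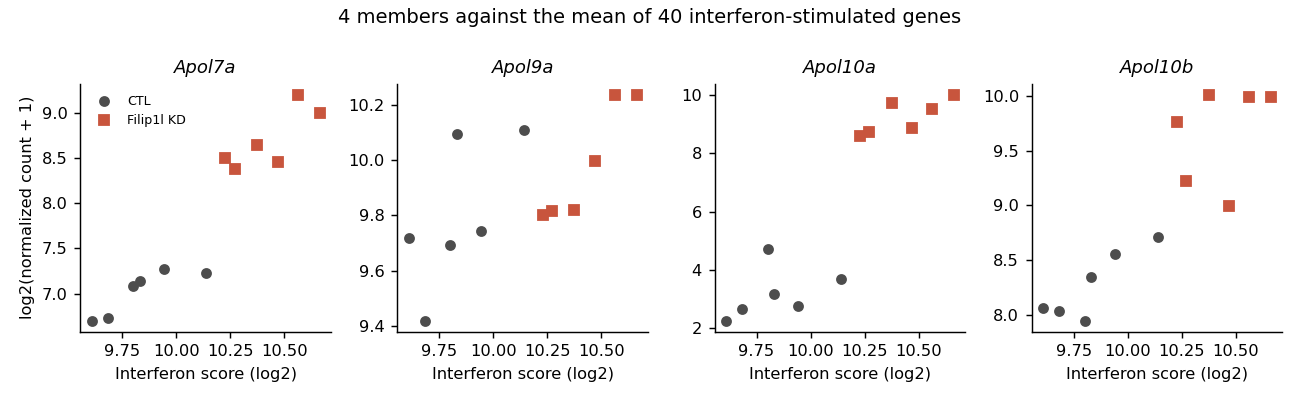
log2(normalized count + 1) of *Apol7a*, *Apol9a*, *Apol10a* and *Apol10b* (y axis) against the interferon score, the mean log2 value of 40 interferon-stimulated genes (x axis), in 6 CTL tumors (grey circles) and 6 *Filip1l*-knockdown tumors (red squares). The score runs from 9.61 to 10.1 in CTL and from 10.2 to 10.7 in knockdown tumors, and within the groups *Apol7a* follows it with r = 0.81.

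Pairs of members were compared in the same way, a step added after seeing the data. Of 37 relations, counting that of *Mb* with *Apol6*, 2 passed at an adjusted p under 0.05. *Apol6* and *Apol10b* moved together (r = 0.91, permutation p = 0.000200, adjusted 0.00740, rho = 0.91, permutation p = 0.000390, adjusted 0.00721), with r = 0.83 in CTL tumors, 0.98 in knockdown tumors and 0.83 without the 2 tumors farthest from the median. *Apol9a* and *Apol9b* did so as well (r = 0.88, permutation p = 0.00118, adjusted 0.0218, rho = 0.92, permutation p = 0.000380, adjusted 0.00721, and 0.84 without the 2 farthest), and these share sequence. *Apol10a* and *Apol10b* were not among the pairs that passed (r = 0.30, permutation p = 0.323, adjusted 0.569, rho = 0.39, permutation p = 0.220, adjusted 0.373). Their r was −0.05 in CTL tumors, where *Apol10a* rested on 4 to 25 reads, and 0.72 in knockdown tumors. Without the 2 farthest tumors it was 0.66.

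Among the 12888 genes averaging 50 normalized counts or more, those whose log2 values followed *Apol10a* most closely over the 12 tumors, group means removed, were *Btnl6* (r = 0.94), *Gid8* (0.92), *Guca2a* (0.86), *Tdrd7* (0.86) and *Slc4a1ap* (0.83). *Btnl6*, a butyrophilin-like gene, and *Guca2a*, the gut hormone guanylin, reached the mean of 50 through the knockdown tumors only (mean of 5.31 against 233 and of 2.74 against 159 normalized counts). Their CTL values, like those of *Apol10a*, lay near the floor, and the filter keeps such genes where they are high in the same group as *Apol10a*. The mean of *Gid8* was 1013 in CTL and 1080 in knockdown tumors. For *Apol9a* they were *Hdhd3* (0.92), *Acadl* (0.90), the interferon-stimulated *Isg15* (0.89), *Ccdc68* (0.89) and its copy *Apol9b* (0.88). These are the highest of many correlations and are given as a description.

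Lists of related genes and of cell type markers were set beside the family. Of all genes, 6.2% were higher past both thresholds and 3.97% lower. Intestinal epithelial genes were higher past both thresholds in 23 of 26 measured (median log2 fold change 2.84), 0 were lower, and *Lypd8*, a gut antibacterial protein, had 198 ± 79.1 against 12872 ± 5043 normalized counts (SD, n = 6 each, log2 fold change 6.09, limma adjusted p = 1.02e-07). *Ush1c*, a scaffold of the brush border, was at or under the floor in every CTL tumor and had 159 ± 65.9 normalized counts in knockdown tumors. Among 20 apolipoproteins of other families and genes of lipoprotein assembly, 3 were higher and 0 lower, namely *Apoa4* (49.4 ± 74.4 against 736 ± 394), *Apoa1* (155 ± 232 against 1079 ± 325) and *Apob* (log2 fold change 1.09, limma adjusted p = 1.87e-05), which build gut and liver lipoproteins. CTL replicate 5 held most of the CTL mean of *Apoa4* and *Apoa1*. Without it these means were 20.1 ± 22.5 and 62.5 ± 62.0 normalized counts (SD, n = 5), and both genes still passed (log2 fold change 5.81 and 4.67, limma adjusted p = 4.20e-05 and 2.98e-05). *Apoe* and *Clu*, the most abundant of that list, had log2 fold changes of −0.23 and −0.18 (limma adjusted p = 0.225 and 0.303). Of 16 genes of the BCL2 family, whose fold the pore-forming region resembles, only *Bcl2l14* was higher past both thresholds (log2 fold change 1.25, limma adjusted p = 0.00138). This 1 of 16 (6.25%) is near the share over all genes. The anti-apoptotic *Bcl2* lay just short of the fold threshold in the lower direction (1398 ± 108 against 704 ± 98.2 normalized counts, limma adjusted p = 1.81e-06).

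Markers of host cells and of epithelium, the latter not particular to the host because the injected cells are lung cancer cells, differed by type. Any of these cells could hold part of the family's transcripts. The counts below stand beside 6.2% of all genes higher past both thresholds and 3.97% lower. Neutrophil markers were higher in 5 of 6, with a summed level of 429 to 505 normalized counts in CTL tumors and 840.1 to 1391 in knockdown tumors. Skeletal muscle markers were higher in 8 of 10 (2460 to 12949 against 5423 to 95119), and carcinoma epithelial markers in 6 of 8 (149757 to 196608 against 217523 to 397217). Dendritic cell (0 of 10), macrophage (0 of 10), T cell (0 of 8), endothelial (0 of 10) and fibroblast markers (0 of 8) had no gene past both thresholds, with summed macrophage levels of 17628 to 24085 against 15383 to 28463. The summed fibroblast level ran from 160117 to 260482 normalized counts in CTL tumors (median 231071) and from 74987 to 253054 in knockdown tumors (median 117703), and the median log2 fold change of these 8 genes was −0.47. The summed endothelial level ran from 3451 to 4195 against 4187 to 6620, with a median log2 fold change of 0.46. Without CTL replicate 5 and knockdown replicate 1, 3 fibroblast markers (*Col1a1*, *Col1a2* and *Lum*) were lower past both thresholds, and 5 of the 8 muscle markers still passed. Of 7 measured lung epithelial markers 1 was higher and 1 lower, and the surfactant gene *Sftpa1*, the club cell gene *Scgb1a1* and *Lamp3* were not in the table. The part of these cell types in the differences of the *Apol* genes was not tested.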

How the data were processed

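RNA was sequenced from 12 tumors, 6 per group, all mapped to a group by their labels. According to the submitters' processing notes and the methods of the study, the authors used bcl2fastq 2.20, Trimmomatic 0.36, STAR 2.5.2b on mm10 and featureCounts of Subread 1.5.2, counting unique hits per gene. The deposited values are a normalized signal, read counts divided by each tumor's DESeq2 size factor and not corrected for length. Whole reads were recovered from their steps (100% of values whole within 0.001 read), and edgeR on these reads called 1635 genes. The members, gene lists and tests were chosen with earlier results of these data known.

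Values were compared with limma 3.58.1 (R 4.3.3, variance trend) on log2(value + 1) over all 15687 genes, with Benjamini-Hochberg adjustment. Calls needed an adjusted p under 0.05 with a log2 fold change beyond 1 in either direction. The lowest gene mean was 9.28, so a filter at a mean of 5 removed no gene. Counts simulated for this comparison covered 15687 genes. There limma called 98 of 100 genes changed by 1.5 and 100 of 100 changed by 2 on the log2 scale. It also called 3 of 15487 unchanged genes. The changed genes were drawn only from those averaging at least 50 normalized counts. They were not split by level, and smaller changes were not simulated. How often a change would be found in members as low as *Apol8* and *Apol7c* is therefore not known. Correlations used log2 values with group means removed and 100000 two-sided permutations within groups, or all 720 pairings within a group, adjusted over each family of relations. Replicate numbers do not pair tumors, as the deviations of tumors sharing a number correlated between −0.27 and 0.10. The p-values, SDs and standard errors rest on the spread between tumors called biological replicates in the labels. The floor of 3 reads concerns counting error only.

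Positions came from GENCODE vM21 (99.8% of identifiers matched), start regions from RefSeq on GRCm38.p6. Lists named up to 2 called genes in each direction with a mean of at least 50, plus receptors, kinases, STATs and IRFs of the interferon list, of which 1 is not reported here. *Irf8*, *Apob*, *Apoe*, *Clu*, *Bcl2*, *Btnl6*, *Guca2a*, *Col1a1*, *Col1a2*, *Lum* and *Sftpb* are discussed with their values seen. Alternatives were pseudocounts of 0.5 and 8, no filter or a mean of 20, other scalings, no trend, a replicate block, edgeR 4.0.16, DESeq2 1.42.0 and leaving out tumors. Leaving out the 2 tumors that stood apart, pair correlations and lengths from all exons were added after seeing the data.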

Additional observations from a re-analysis of the deposited data

Results flagged for a closer look

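*Apol7e* in *Filip1l*-knockdown replicate 1 had 90.8 normalized counts, while the other 5 tumors of its group lay between 20.6 and 41.9, a gap that stood out by Dixon's criterion for groups of 6. Of 18 sets of 6 values checked (9 members in 2 groups) this was the 1 that did so, and chance alone gives about 1 in 20. The same tumor lay farthest from its group over all genes. Without it the log2 fold change of *Apol7e* was −0.78, against −0.54 with it.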

How the results depend on the processing

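The calls of all 9 members (*Apol10a*, *Apol6*, *Apol7a* and *Apol10b* past both thresholds, the other 5 not) and the direction of every member were the same under every alternative that gave a value. *Apol8* was removed by the filter at a mean of 20. When single tumors were omitted, *Apol10a* had a log2 fold change of 5.85 to 6.34, *Apol6* of 1.72 to 2.14, *Apol7a* of 1.57 to 1.73 and *Apol10b* of 1.31 to 1.51. Over the other alternatives *Apol10a* ran from 5.20 to 6.27. With the replicate number as a block, 1554 genes were called in place of 1596 with 1542 shared, and still the same 4 members. Of the listed genes, the block changed the call of the lung marker *Sftpb* alone, which no longer passed. The count of BCL2 genes was 1, or 2 with *Bcl2* under both rescalings, with edgeR, without CTL replicate 5 and knockdown replicate 1 together, and in some fits without 1 tumor (1 to 2). The count of interferon pathway genes was 1 to 2 over fits without 1 tumor. The number of score relations that passed was 1, with 0 after rescaling to the same total (*Apol7a* r = 0.76) and 0 to 3 over fits without 1 tumor, where, beside *Apol7a*, *Apol9a* passed without CTL replicate 3 or 4 and *Apol7e* without knockdown replicate 1 (interferon score), and *Apol9a* and *Apol9b* passed without CTL replicate 6 (intestinal score). The cause was not tested. Low CTL reads limit the precision of *Apol10a* and *Apol8*, and shared sequence that of *Apol7e*, *Apol9a* and *Apol9b*.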
